A study of Mus musculus with 6 samples.

Results

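The neurons described here carry high levels of Tac2, the gene of the neurokinin B precursor, in mouse hypothalamus. They were measured by Drop-seq, a droplet method for single cells that counts unique molecular identifiers (UMIs, one per captured transcript) of each gene in each cell. Of 13994 cell barcodes, 9449 passed with at least 300 genes and at most 20% of UMIs in mitochondrial genes. Of these, 5714 held at least 1 UMI summed over the neuronal transcripts Snap25, Syt1, Snhg11 and Meg3. The 90 Tac2 neurons were the cells among them with at least 5 Tac2 UMIs and at most 4 UMIs each of Pomc, Agrp and Sst, the genes of other hypothalamic peptide neurons. IDOL KO mice, 8 weeks old and of strain C57BL/6J, were set against wild type (WT) mice of the same strain and age, with 3 libraries in each group (KO1 to KO3 and WT1 to WT3). IDOL, encoded by Mylip, is an E3 ubiquitin ligase that sends a family of lipoprotein receptors to degradation. The labels give neither the deleted part of Mylip nor the number of animals behind a library, so the library was the unit of the tests. Preparation took place on 2 days with the groups mixed, and the day of each library is not given.

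Neurokinin B is a tachykinin that acts on the receptor encoded by Tacr3. In the arcuate nucleus, neurokinin B, the opioid dynorphin (encoded by Pdyn) and kisspeptin are made by the same glutamatergic neurons, called KNDy neurons. These cells sense gonadal steroids and drive the pulsatile release of gonadotropin-releasing hormone, with neurokinin B as the excitatory and dynorphin as the inhibitory signal among them. Other Tac2 neurons of the hypothalamus lie outside the arcuate nucleus, and several of those groups are GABAergic.

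Mylip gave 2, 0 and 0 UMIs over all barcodes of KO1, KO2 and KO3, against 76, 35 and 49 in WT1, WT2 and WT3. The targeted gene was thus near 0 in each library labelled KO. In Tac2 neurons Mylip was at the limit of detection, with 0 UMIs in KO and 1 in WT. All libraries held 286 to 733 UMIs of the Y-linked gene Ddx3y and 0 to 3 of Xist, the profile of male tissue. The libraries held 1670993 to 4068886 UMIs. The Tac2 neurons were unevenly spread over them: KO1, KO2 and KO3 gave 20, 10 and 12 cells, against 38, 5 and 5 in WT1, WT2 and WT3. WT1 thus held 38 of the 48 WT cells, and 132488 of the 175563 UMIs of WT Tac2 neurons. Summed UMIs of the Tac2 neurons were 64453, 25064 and 34194 in the KO libraries, against 132488, 25460 and 17615 in WT. Of all barcodes, 3 were shared between libraries, none of them a Tac2 neuron. Scrublet called 116 of the passing cells doublets (1.23%), among them 1 Tac2 neuron of KO1. In summed counts, fewer cells of a kind and less RNA per cell cannot be told apart.

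Tac2 transcripts sat in few cells. Tac2 (chr10:127724478-127731768, plus strand, GRCm38) gave 1613 UMIs in passing cells, and 1446 of them (89.6%) were in the 90 Tac2 neurons. A Tac2 neuron held a median of 13 and at most 61 Tac2 UMIs. In the 6 libraries Tac2 stood at 3879, 6463 and 5264 CPM (UMIs of a gene per 1000000 UMIs of the summed cells) in Tac2 neurons of KO1, KO2 and KO3, against 4823, 5459.5 and 4314.5 CPM in WT1, WT2 and WT3. The values overlapped between the groups. No barcode with 5 or more Tac2 UMIs failed the cell filters, and none was dropped for Pomc, Agrp or Sst. Among the other neurons 1.48% had any Tac2 UMI, against 10 of 3735 passing cells without a UMI of the 4 neuronal transcripts. Just inside the threshold, 6 neurons had 5 Tac2 UMIs, of which 2 carried Pdyn, 5 Prlr and 4 Gal. Just outside it, 8 neurons had 4 Tac2 UMIs, of which 5 carried Pdyn, 3 Prlr and 1 Gal. A threshold on UMIs favours deep cells, and Tac2 neurons were deeper than the other 5624 neurons, with a median of 2878.5 UMIs (654 to 13156) against 1108.

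**Figure D1:**
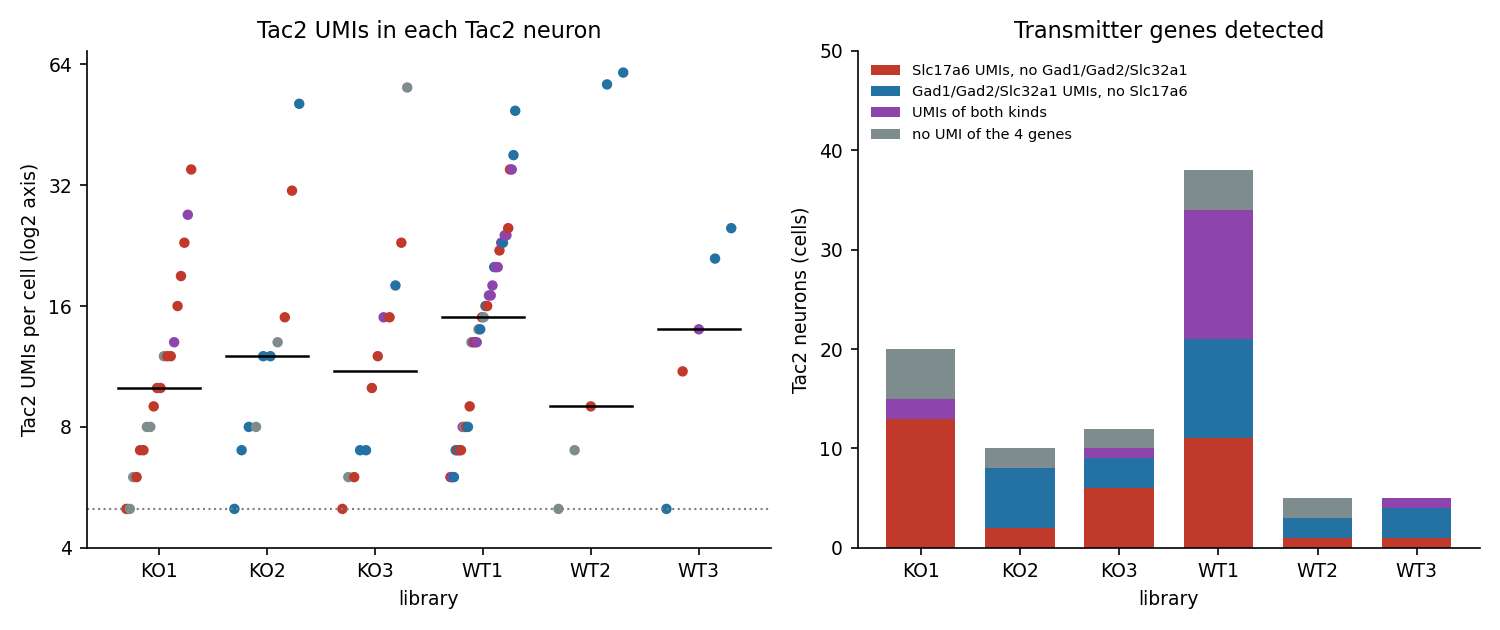
Left, Tac2 UMIs of each Tac2 neuron by library on a log2 axis, coloured by the transmitter genes detected, with the library median as a bar and the threshold of 5 UMIs as a dotted line. Right, the number of Tac2 neurons of each library by the same colours: the KO libraries hold 20, 10 and 12 cells, the WT libraries 38, 5 and 5, and 13 of the 17 cells with both kinds of transmitter gene are in WT1.

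The given marker genes were present, each in a part of the cells. Pdyn was detected in 53 of the 90 cells (58.9%), Nr5a2, a nuclear receptor gene, in 21, Rxfp1, a relaxin receptor gene, in 18, and Col24a1, a collagen gene, in 14. Over the 6 libraries Pdyn averaged 334 ± 243 CPM (SD, n = 6) in Tac2 neurons, against 48.5 ± 17.6 CPM in the other neurons. Rxfp1 averaged 198 ± 106 CPM in Tac2 neurons, against 6.02 ± 1.61 CPM in the others, and Nr5a2 125 ± 97.3 CPM against 3.53 ± 2.62 CPM. These genes were given with the rule, so their levels are a description. Markers of other cell types were low. The 10 oligodendrocyte genes summed to 279 to 585 CPM in KO and 332 to 681 CPM in WT Tac2 neurons, against 5418 to 15297 CPM in the other neurons. The 10 astrocyte genes summed to 239 to 526 CPM in KO and 227 to 393 CPM in WT Tac2 neurons, against 2169 to 3529 CPM in the others. Of the 10 genes of microglia and macrophages 8 were at 0 in Tac2 neurons, C1qa and Cx3cr1 among them, as were 4 of the 6 measured genes of oligodendrocyte precursors and 8 of the 9 of mural cells and fibroblasts. Endothelial genes reached 39.9 CPM in KO and 159 CPM in WT Tac2 neurons, against at least 690 CPM in the others, and genes of tanycytes and ependymal cells 292 and 341 CPM, against at least 745 CPM. The part of such transcripts in the results below was not tested, and counts are also given against the 3272 other neurons with at least 5 UMIs of the 4 neuronal transcripts.

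The Tac2 neurons were of more than one transmitter kind. Slc17a6, the vesicular glutamate transporter of most hypothalamic excitatory neurons, was detected without Gad1, Gad2 or Slc32a1 in 34 cells (37.8%). The GABA genes Gad1, Gad2 (both glutamate decarboxylases) or Slc32a1 (the vesicular GABA transporter) were detected without Slc17a6 in 24 cells (26.7%). Both kinds were seen in 17 cells (18.9%) and neither in 15 (16.7%). Of the 17 cells with both, 13 came from WT1. The cells with neither were shallow, with a median of 1660.0 UMIs against 3579 in the Slc17a6 cells, 3037.5 in the GABA cells and 3420.0 in the cells with both. Among the other neurons 9.30% had Slc17a6 alone, 29.3% GABA genes alone, 2.24% both and 59.1% neither. These neurons were shallower, with a median of 1108 UMIs against 2878.5 in Tac2 neurons. Shares by detection depend on depth, so the 2 sets of shares cannot be compared directly. The cells with Slc17a6 alone numbered 13 of 20, 2 of 10 and 6 of 12 in KO1, KO2 and KO3, against 11 of 38, 1 of 5 and 1 of 5 in WT1, WT2 and WT3. KO1 held no cell with GABA genes alone, and KO2 held 6 and KO3 held 3, against 10, 2 and 3 in WT1, WT2 and WT3.

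Among the neuropeptide and receptor genes of KNDy neurons, dynorphin and the neurokinin B receptor were found together. Tacr3 was rare, with 21 UMIs in 14 cells, and all 14 also carried Pdyn. Tacr3 stood at 46.5, 0 and 58.5 CPM in KO1, KO2 and KO3, against 106, 78.6 and 0 CPM in WT1, WT2 and WT3, and averaged 5.01 CPM in the other neurons. It was seen in 0 of 1039 deep cells without neuronal transcripts (at least 1000 UMIs, median 1462), which allows a share of cells with a UMI of up to 0.289%, in cells shallower than the Tac2 neurons. Oprk1, the gene of the dynorphin receptor, was detected in 26 cells and averaged 105 ± 92.7 CPM in Tac2 neurons, against 33.4 ± 3.82 CPM in the other neurons. Oprk1 passed as higher with edgeR (log2 difference 1.82 ± 0.34, SE, adjusted p = 3.29e-06), but not with DESeq2 (adjusted p = 0.0542). The kisspeptin receptor gene Kiss1r had 1 UMI in the Tac2 neurons, Tacr1 was seen in 2 cells, and Oprm1 and Oprd1, the genes of other opioid receptors, in 0 of 90, which allows a share of cells with a UMI of up to 3.33% and sets no limit on cells that express them. By the rule every cell here carries Tac2, so Tacr3 could be seen only together with it. The bases upstream of Tac2 and Tacr3, the genes of a ligand and its receptor, are shown next. They are the 250 bases before the annotated start of each gene in RefSeq on GRCm38.p6, plus strand, at chr10:127724228-127724477 for Tac2 and chr3:134828757-134829006 for Tacr3. Capitals mark CAGCTG, an E-box of the kind that basic helix-loop-helix factors bind.
Tac2: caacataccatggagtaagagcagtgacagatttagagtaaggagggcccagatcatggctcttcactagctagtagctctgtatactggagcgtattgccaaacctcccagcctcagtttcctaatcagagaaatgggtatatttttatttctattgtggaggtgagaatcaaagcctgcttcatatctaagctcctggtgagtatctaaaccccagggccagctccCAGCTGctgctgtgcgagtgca
Tacr3: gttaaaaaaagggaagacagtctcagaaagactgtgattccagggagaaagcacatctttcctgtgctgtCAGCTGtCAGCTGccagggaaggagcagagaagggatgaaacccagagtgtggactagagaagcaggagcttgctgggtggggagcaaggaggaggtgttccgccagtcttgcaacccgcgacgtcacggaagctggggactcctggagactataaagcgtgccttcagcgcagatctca
The Tac2 stretch holds 1 such E-box, starting 22 bases before the start, and the Tacr3 stretch holds 2, at 180 and 173 bases. CAGCTG reads the same on both strands and was present in 4271 of 32851 such stretches (13%). Searched the same way on both strands, CAAGGTCA, the site letters of the orphan receptor that Nr5a2 encodes, was in 1.33% of all stretches and in neither of those shown. These are matches of letters.

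The gene of smallest adjusted p among those higher in Tac2 neurons than in other neurons has a name in the table that needs care. The row GOLT1A is named in capitals as the human gene is, and its mouse counterpart Golt1a, a gene of Golgi vesicle transport, lies at chr1:133309800-133323026 on the plus strand (GRCm38, GENCODE M21). It overlaps Kiss1, the kisspeptin gene at chr1:133321875-133329901 on the same strand, by 1152 bases, and RefSeq lists Kiss1 among the synonyms of Golt1a. Which of the genes gave these UMIs cannot be told from the counts, and Kiss1 under its own name was not analysed here. GOLT1A stood at 900, 399 and 1375 CPM in Tac2 neurons of KO1, KO2 and KO3, against 551, 196 and 511 CPM in WT1, WT2 and WT3. In the other neurons it averaged 6.07 ± 6.24 CPM. It was detected in 53 of the 90 Tac2 neurons (58.9%), in 0.569% of the other neurons and in 3 of the 1039 deep cells without neuronal transcripts. None of 54 Pomc, 91 Agrp or 126 Sst neurons had a UMI of it, which allows shares of cells with a UMI of up to 5.56%, 3.30% and 2.38% at median depths of 3676.5, 3193 and 2434 UMIs. The log2 difference from the other neurons was 6.58 ± 0.28 (edgeR, adjusted p = 1.62e-121), in 6 of 6 libraries.

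Summed per library and compared with the other neurons of the same library, Tac2 neurons were lower for many more genes than they were higher. Of 8625 genes tested, 1241 passed (14.4%), the rule's own genes included, with 217 higher (2.52%) and 1024 lower (11.9%), in edgeR's quasi-likelihood test at an adjusted p of 0.05. In data simulated for this comparison 67.7% of the tested genes changed 4-fold were recovered and 0.51% of those changed 2-fold. The simulation gave every gene the same assumed spread between libraries. Differences under 2-fold passed in the real counts, such as 0.80 ± 0.13 (log2, SE) for Scg2, so these shares do not describe the fit made here. A gene that did not pass is not shown to be alike in both. Against the other neurons with at least 5 UMIs of the neuronal transcripts, 563 of 7565 passed (7.44%), 97 higher (1.28%) and 466 lower (6.16%). Library totals as the sole scaling gave 473 higher and 835 lower, with a median log2 difference over all genes of -0.02 in place of -0.20. Without WT1 the counts were 90 higher and 751 lower, and without KO1 124 higher and 901 lower.

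The prolactin receptor gene Prlr and the estrogen receptor gene Esr1 were higher in Tac2 neurons. Of 14 hormone and metabolic receptor genes tested, 4 passed as higher, among them Prlr, Esr1 and the given marker Rxfp1, and 3 passed as lower (Ghr, Nr3c1 and Npy2r), with a median log2 difference of -0.24 against -0.20 over all genes. Over all genes 2.52% passed as higher and 11.9% as lower. Prlr stood at 1117, 559 and 585 CPM in Tac2 neurons of the KO libraries, against 725, 471 and 852 CPM in those of WT, and averaged 83.3 ± 29.0 CPM in the other neurons. It was detected in 69 of the 90 cells (76.7%), against 8.96% of the other neurons and 0.577% of the deep cells without neuronal transcripts. Its log2 difference from the other neurons was 2.90 ± 0.20 (edgeR, adjusted p = 9.20e-46). Esr1, which encodes estrogen receptor alpha, averaged 110.2 ± 87.8 CPM in Tac2 neurons, with 0 UMIs in KO2, and 12.4 ± 5.07 CPM in the others, a log2 difference of 3.07 ± 0.38 in 5 of 6 libraries (edgeR, adjusted p = 6.34e-14). Nr3c1, the glucocorticoid receptor gene, was lower, at 91.8 ± 70.2 CPM in Tac2 neurons and 201 ± 27.4 CPM in the others (edgeR, adjusted p = 1.08e-04). Calcr, Npy1r and Thra did not pass (edgeR, adjusted p = 0.0823, 0.403 and 0.762). The leptin receptor gene Lepr had 0 UMIs in the 90 cells.

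The transcription factor genes split. Of 19 tested, 4 passed as higher (Nhlh2, Lhx5, Dlx1 and the given marker Nr5a2) and 8 as lower, with a median log2 difference of -1.36. Of all genes 2.52% passed as higher and 11.9% as lower. Nhlh2, a basic helix-loop-helix factor needed for normal gonadal function in mice, stood at 698, 79.8 and 409 CPM in Tac2 neurons of KO1, KO2 and KO3, against 294, 39.3 and 56.8 CPM in WT1, WT2 and WT3, and at 16.7 ± 5.90 CPM in the other neurons. Its log2 difference was 3.86 ± 0.30 (edgeR, adjusted p = 1.12e-35). KO2 lay below WT1, and each KO library lay above the WT library of the same number; Nhlh2 had too few UMIs for the test of KO against WT. Nhlh2 was seen in 37 Tac2 neurons and 19 of the 54 Pomc neurons, and in 0 of the 1039 deep cells without neuronal transcripts. Lhx5, a LIM-homeobox gene, averaged 113 ± 79.0 CPM in Tac2 neurons and 12.5 ± 3.35 CPM in the others (edgeR, adjusted p = 5.39e-11). Dlx1, a homeobox gene of GABAergic neurons, passed as higher in 5 of 6 libraries (edgeR, adjusted p = 0.0195), but not without WT2 (adjusted p = 0.093), WT3 (0.158) or KO2 (0.188), nor against the other neurons with at least 5 UMIs of the neuronal transcripts (adjusted p = 0.253), without the largest Tac2 neuron of each library (0.694) or in DESeq2 (0.164). Tbx3, Nkx2-1, Foxp1, Peg3 and Zfhx3 did not pass (edgeR, adjusted p of 0.149 to 0.740). Otp, a homeobox gene of Agrp and Sst neurons here, had 0 UMIs in the Tac2 neurons against 74.2 CPM in the others, at least 7.41-fold lower with a floor of 3 UMIs over all Tac2 neurons. Isl1, a LIM-homeobox gene of arcuate neurons, was in 3 Tac2 neurons.

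Galanin stood out among the other neuropeptides. Gal, its gene (chr19:3409915-3414544, minus strand), averaged 2466 ± 1518 CPM in Tac2 neurons and 334 ± 201 CPM in the others, and was detected in 61 of the 90 cells, against 6.95% of the other neurons and 0.866% of the deep cells without neuronal transcripts. The log2 difference was 2.48 ± 0.15, in 6 of 6 libraries (edgeR, adjusted p = 1.10e-55). It was the single gene to pass as higher of the 18 other neuropeptide genes tested, and 12 passed as lower, where 2.52% and 11.9% of all genes did. Among those, Avp (vasopressin) averaged 28.5 ± 39.2 CPM in Tac2 neurons and 3357 ± 1140.5 CPM in the others, and Oxt (oxytocin) 28.3 ± 14.6 CPM and 1075 ± 920.0 CPM. Avp and Oxt UMIs were in 7 and 9 of the 90 Tac2 neurons, against 9.53% and 6.16% of the deep cells without neuronal transcripts. Penk, the enkephalin gene, passed as lower in edgeR (adjusted p = 0.00255), but not in DESeq2 (0.0535). Npy had 1 UMI in the Tac2 neurons, and its level in the other neurons was 165 times that, with an exact 95% interval of counting error of 29.6 to 6507. Vip, at 0 UMIs, was at least 13.2-fold lower, and Trh and Ghrh were at 0 as well. The median log2 difference of the 18 genes was -2.80, and -2.23 with genes at 0 set to their bound.

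Slc17a6 was higher in Tac2 neurons, at 318 ± 231 CPM against 136 ± 19.9 CPM in the others (edgeR, log2 difference 1.13 ± 0.22, adjusted p = 7.01e-06), in 4 of 6 libraries. This call was lost without KO1 (adjusted p = 0.0738) and in DESeq2 (0.154). Gad1, Gad2 and Slc32a1 did not pass (edgeR, adjusted p = 0.802, 0.993 and 0.382). Gad2 spread widely, at 15.5, 758 and 263 CPM in KO1, KO2 and KO3 and 325, 1021 and 852 CPM in WT1, WT2 and WT3. Of 10 genes of fast transmitters and amines tested, 1 passed as higher and 6 as lower, where 2.52% and 11.9% of all genes did. The amine genes Th, Ddc, Slc18a2 and Hdc were among those 6, and Th and Hdc had 1 UMI each in the 90 cells.

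Other genes chosen by rank were of varied kinds. Tmem35, which encodes a chaperone of nicotinic receptors, averaged 417 ± 291 CPM in Tac2 neurons and 66.9 ± 12.6 CPM in the others, and Kcnk2, a background potassium channel gene, 401 ± 259 CPM and 82.2 ± 13.9 CPM. Ecel1, a peptidase gene, averaged 471 ± 269 CPM in Tac2 neurons and 97.8 ± 11.7 CPM in the others. With Sytl4, Zcchc12, Nap1l5, Sphkap, Gnai1, Scg2, Cmip and the row RP24-351J24.2, these genes passed as higher in 6 of 6 libraries, with log2 differences of 0.80 for Scg2 to 3.36 for RP24-351J24.2 (edgeR, adjusted p of at most 3.55e-08). Against Pomc neurons, a comparison given below, Tmem35, Kcnk2 and Ecel1 did not pass (edgeR, adjusted p = 0.920, 0.218 and 0.920). Tmem35 passed as higher against Agrp and Sst neurons, Kcnk2 against Sst neurons alone, and Ecel1 against neither. Of 14 genes of peptide processing and dense-core vesicles, Scg2 (secretogranin II) was the 1 that passed as higher, and Cpe, Pam and Chga passed as lower, where 2.52% of all genes were higher and 11.9% lower. Scg2 averaged 4826 ± 759.7 CPM in Tac2 neurons and 2330.2 ± 658 CPM in the others. Of 23 genes of pacemaker and excitability channels, 3 passed as higher and 1 as lower. Trpc5, a cation channel gene, averaged 129 ± 45.5 CPM in Tac2 neurons and 22.6 ± 4.57 CPM in the others (edgeR, adjusted p = 2.06e-07). Kcnd2, an A-type potassium channel gene, averaged 181 ± 142 CPM in Tac2 neurons and 88.7 ± 7.56 CPM in the others, and Cacna1g, a T-type calcium channel gene, 73.3 ± 49.4 CPM and 19.9 ± 6.69 CPM, higher in 4 and 5 of 6 libraries (edgeR, adjusted p = 0.00853 and 0.00939). Cacna1g did not pass against the other neurons with at least 5 UMIs of the neuronal transcripts.

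The 10 genes lowest by rank included the glial transcripts Apoe, Dbi, Mt1, Sparcl1, Cst3, Sparc and Apod and the peptides Avp and Oxt. The genes of IDOL targets and lipoprotein handling gave other counts against each set of other neurons. Of 16 tested, 8 passed as lower and none as higher against all other neurons, and 3 (Apoe, Srebf1 and Scd2) of 10 against those with at least 5 UMIs of the neuronal transcripts. Of all genes 11.9% and 6.16% passed as lower in these comparisons. Vldlr and Lrp8, which encode receptors that IDOL targets, did not pass (edgeR, adjusted p = 0.828 and 0.626). Vldlr averaged 74.4 ± 51.7 CPM in Tac2 neurons and 86.5 ± 10.2 CPM in the others. Of 18 genes of cholesterol synthesis, 2 passed as lower, a share near the 11.9% of all genes, and none of 16 in the second comparison. Of 16 immediate early genes, 13 passed as lower (median log2 difference -2.58), and 10 of 16 in the second comparison, where 11.9% and 6.16% of all genes did. In the comparisons with Pomc, Agrp and Sst neurons given below, 6 of these genes were tested. Of them 3, 6 and 0 passed as lower, where 1.6%, 3.99% and 3.63% of all genes did. The median against Sst neurons was 0.03, so low levels of these genes were not particular to Tac2 neurons. Fos averaged 373 ± 241 CPM in Tac2 neurons and 1733 ± 281 CPM in the others, and Jun 238 ± 135 CPM and 1072 ± 224 CPM. Nr4a2, another gene of that list and an orphan nuclear receptor, was the 1 that passed as higher than in the other neurons (edgeR, adjusted p = 4.35e-10). It was in 22 Tac2 neurons, and its level exceeded that of the other neurons in 3 of 6 libraries. A small p-value between cell kinds thus does not stand for agreement of the libraries.

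Set against Pomc, Agrp and Sst neurons, Tac2 neurons were higher for Gal and lower for Cartpt, the gene of another neuropeptide precursor. These kinds were taken because the rule names their genes, and they were defined by the same filter, with at least 5 UMIs of Pomc, Agrp or Sst and at most 4 of each other gene of the rule. Of 1378 genes tested, the rule's own genes included, 42 passed against Pomc neurons (3.05%; 20 higher, 1.45%, and 22 lower, 1.6%), 92 against Agrp neurons (6.68%; 37 higher, 2.69%, and 55 lower, 3.99%) and 116 against Sst neurons (8.42%; 66 higher, 4.79%, and 50 lower, 3.63%). In each comparison 2 of those that passed were Tac2 and the gene that defined the other kind, and the given marker Pdyn also passed against Agrp and Sst neurons. The comparisons share the Tac2 neurons. Against Pomc neurons 19 genes passed without WT1 and 27 without KO3, and against Sst neurons 53 without KO1, 45 without WT1 and 179 without WT3. Gal averaged 2466 CPM in Tac2 neurons, against 132 CPM in Pomc, 12.1 CPM in Agrp and 51.5 CPM in Sst neurons, with log2 differences of 4.61 ± 0.43, 7.29 ± 0.57 and 5.60 ± 0.45 (edgeR, adjusted p = 1.91e-09, 1.42e-11 and 4.88e-11). Prlr averaged 718 CPM in Tac2 neurons, against 325 CPM in Pomc, 25.3 CPM in Agrp and 43.4 CPM in Sst neurons, and was among the 5 genes of smallest p for Agrp and for Sst neurons. Pdyn was close to the level of Pomc neurons, at 334 CPM in Tac2 and 269 CPM in Pomc neurons, and stood at 2.39 CPM in Agrp neurons; as a given marker it is described only. Lower in Tac2 than in Pomc neurons were Cartpt (160 CPM against 7871 CPM) and Serpina3n, a protease inhibitor gene (edgeR, log2 difference -5.05 ± 0.54, adjusted p = 3.31e-08). Lower than in Agrp neurons were Npy (1.26 CPM against 12918 CPM) and Otp (0 CPM against 647 CPM), and lower than in Sst neurons were Otp (0 CPM against 461 CPM) and Dlk1 (238 CPM against 1290.5 CPM), an imprinted gene.

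**Figure D2:**
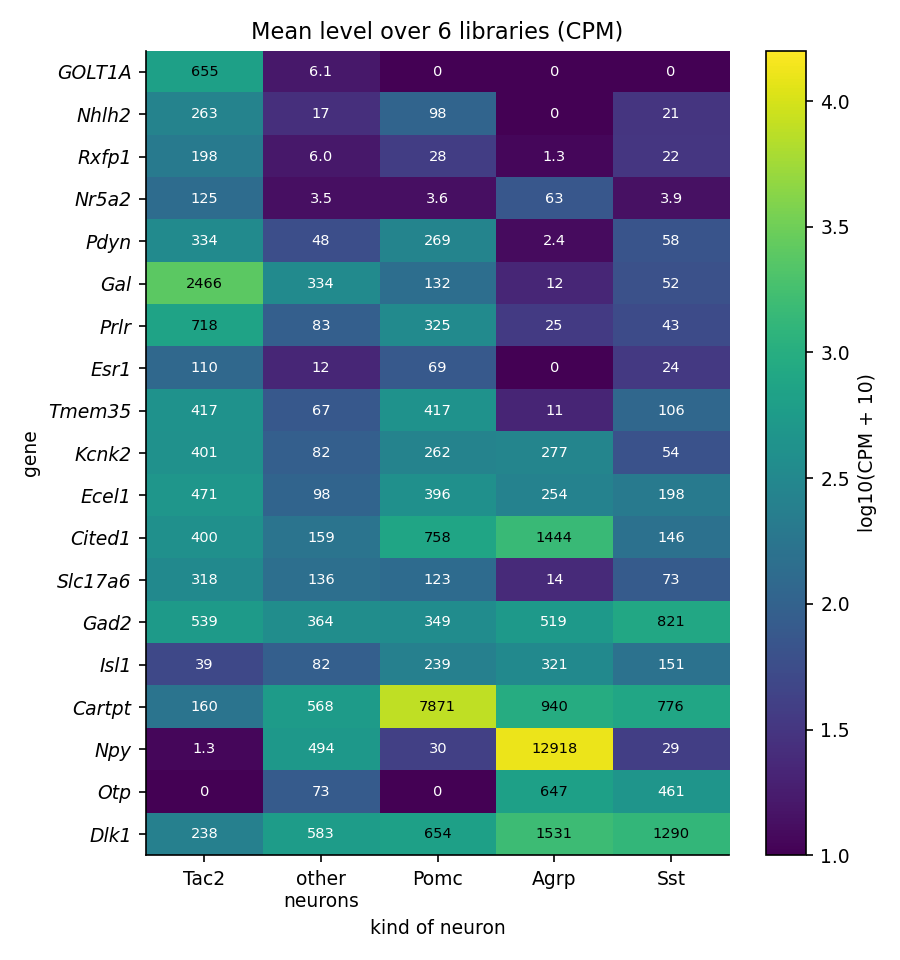
Mean CPM over the 6 libraries of 19 genes in the 90 Tac2 neurons and, to their right, in the other neurons and in Pomc, Agrp and Sst neurons, coloured by log10(CPM + 10). GOLT1A is at 655 CPM in Tac2 neurons and 0 in the 3 peptide groups, whereas Cartpt leads in Pomc and Npy in Agrp neurons.

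Pdyn, GOLT1A, Nhlh2 and Slc17a6 were often detected in the same cells. Of the 53 cells with Pdyn, 43 had GOLT1A (81.1%), against 10 of the 37 cells without Pdyn (27.0%). Nhlh2 was in 33 of the 53 cells with GOLT1A (62.3%) and in 4 of the 37 without (10.8%). Slc17a6 was in 32 of the 37 cells with Nhlh2 (86.5%), against 19 of the 53 without (35.8%). Gad2 ran the other way, in 11 of the 53 cells with GOLT1A (20.8%) and 23 of the 37 without (62.2%). Gal was in 64.2% of cells with GOLT1A and 73.0% of those without. Cells of 1 library share it and deeper cells show more genes, so these shares are a description.

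Sorted by transmitter, the cells gave different levels of several named genes. Summed over all libraries, GOLT1A was at 1032 CPM in cells with Slc17a6 alone and 82.5 CPM in cells with GABA genes alone, Nhlh2 at 507 and 30.9 CPM, Pdyn at 570 and 82.5 CPM, and Rxfp1 at 294 and 20.6 CPM. GOLT1A, Nhlh2 and Pdyn were higher in the Slc17a6 cells in each of the 5 libraries that held both kinds. Gal was at 997 CPM in the Slc17a6 cells and 4566 CPM in the GABA cells, and higher in the GABA cells in 4 of those 5 libraries. Zcchc12 and Nap1l5 were higher in the GABA cells in 5 of 5. Dlx1 was in 14 of the 24 GABA cells and 0 of the 34 Slc17a6 cells, Calcr, the calcitonin receptor gene, in 8 and 0, and Tacr3 in 0 and 5. Cells with both kinds of transmitter gene had GOLT1A at 745 CPM, Pdyn at 856 CPM and Nhlh2 at 539 CPM. These levels were nearer to those of the Slc17a6 cells than of the GABA cells. Tacr3 was in 8 of these 17 cells, a larger share than in the Slc17a6 cells. Of the 17 cells 13 came from WT1, so these values rest largely on 1 library. The 15 shallow cells with neither had GOLT1A at 1157 CPM and Pdyn at 709 CPM. Prlr was found in both kinds, at 881 CPM in the Slc17a6 cells and 391.7 CPM in the GABA cells. The kinds were cut from detection in these same cells and no test was made between them.

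**Figure D3:**
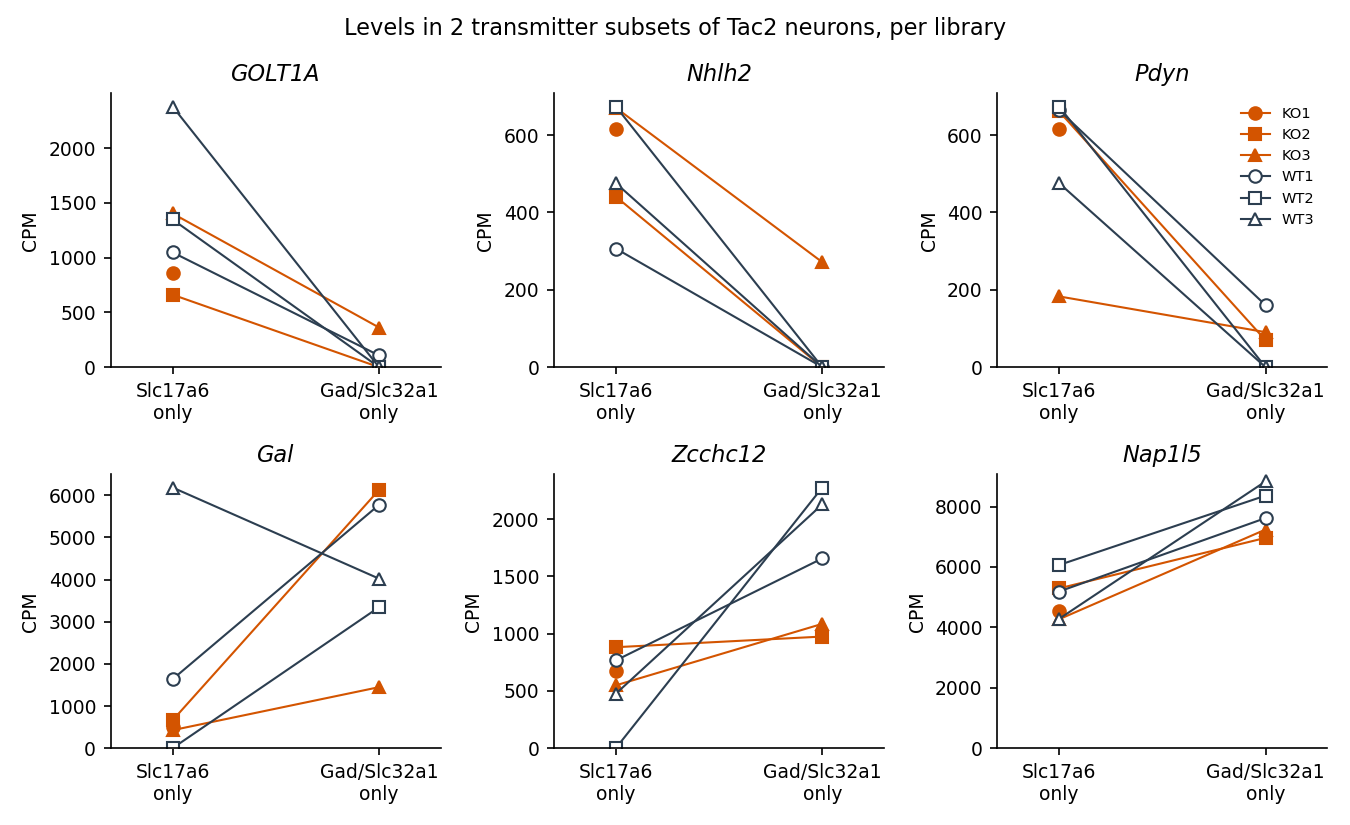
CPM of 6 genes in Tac2 neurons with Slc17a6 alone and with Gad1, Gad2 or Slc32a1 alone, 1 line per library, with filled markers for KO and open ones for WT. KO1 has no cell of the second kind, and the first kind is 1 cell in WT2 and in WT3. GOLT1A, Nhlh2 and Pdyn lie lower on the right in each of the 5 lines, and Zcchc12 and Nap1l5 higher.

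The share of neurons that were Tac2 neurons overlapped between KO and WT. Tac2 neurons were 2.15%, 0.902% and 1.15% of neurons in KO1, KO2 and KO3, against 2.76%, 0.818% and 0.779% in WT1, WT2 and WT3. The exact 95% interval of counting error was 1.32 to 3.29% in KO1 and 1.96 to 3.77% in WT1, which were the high libraries of their groups. The means were 1.40 ± 0.66% in KO and 1.45 ± 1.13% in WT (SD, n = 3 each; two-sided exact permutation test, p = 1.0, where 3 against 3 libraries cannot give less than 0.1). Cells with Slc17a6 alone were 45.0 ± 22.9% of Tac2 neurons in KO and 23.0 ± 5.17% in WT (exact permutation test, p = 0.4). The groups met at 20% in KO2, WT2 and WT3. After thinning to 1000 UMIs per cell these shares were 29.8 ± 12.9% and 16.2 ± 14.0%. Thinning left out Tac2 neurons of fewer than 1000 UMIs, 2 in KO1, 4 in WT1 and 1 in WT2. Among cells with at least 10 Tac2 UMIs the groups did not overlap, with cells of Slc17a6 alone at 72.7%, 33.3% and 57.1% in KO1, KO2 and KO3, against 23.1%, 0% and 25% in WT1, WT2 and WT3 (two-sided exact permutation test, p = 0.1, the smallest possible). WT2 and WT3 then held 2 and 4 Tac2 neurons. GOLT1A was detected in 66.1 ± 31.3% of Tac2 neurons in KO and 43.3 ± 5.77% in WT, Pdyn in 51.1 ± 25.2% and 48.6 ± 14.9%, and Tacr3 in 7.78 ± 7.52% and 14.6 ± 12.7% (exact permutation tests, p of 0.4 to 1.0, and 0.75 to 1.0 adjusted over the 3 genes).

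No gene passed between KO and WT within the Tac2 neurons. Of 552 genes with enough UMIs to be tested, 0 passed in edgeR (0%) and 0 in DESeq2, and 20 (3.62%) and 7 had an unadjusted p under 0.05. In 51 of the 552 (9.24%) the libraries of KO and WT did not overlap. In data simulated from the pooled counts of these libraries, 95.1% of the tested genes changed 4-fold and 22.9% of those changed 2-fold were recovered. Of the genes tested, 163 of 644 were changed at 4-fold and 166 of 567 at 2-fold. Changed genes with too few UMIs to be tested were not counted. The simulation gave every gene the same assumed spread between libraries. These shares thus do not hold for genes that spread more, or where few genes change. The genes of smallest p were Zcchc12, a zinc-finger gene, and Snrnp70, a splicing factor gene, on the lower side, and mt-Rnr1, Atrx and GOLT1A on the higher (edgeR, adjusted p = 0.976 for each). Zcchc12 stood at 729, 958 and 848 CPM in KO1, KO2 and KO3, against 1094, 1964 and 1646 CPM in WT1, WT2 and WT3, and Snrnp70 at 388, 239 and 351 CPM against 679, 628 and 738 CPM. Atrx, a chromatin remodeller gene, stood at 760, 519 and 936 CPM in KO1, KO2 and KO3, against 423, 471 and 284 CPM in WT1, WT2 and WT3. The groups did not overlap in any of these 3 genes. Zcchc12 was higher, and GOLT1A lower, in cells with GABA genes alone than with Slc17a6 alone, in each library with both. These kinds were unevenly spread over the libraries, and the part of the transmitter mix in these levels was not tested. Cited1, a transcriptional co-activator gene, stood at 403, 519 and 760 CPM in KO1, KO2 and KO3, against 279, 39.3 and 397 CPM in WT1, WT2 and WT3 (log2 difference 1.17 ± 0.46). Meg3 was used to choose neurons, mt-Rnr1 is among the mitochondrial genes of the filter, and mt-Rnr1 passed without KO3 (edgeR, adjusted p = 0.047). The others among the 10 of smallest p in each direction were Meg3, Cited1, Chgb, Top1, Atp2b1, App and Map9 on the higher side, and Ywhah, Hap1, Bsg, Tsn, Eif1b, Atp5h, Tmsb10 and Ddx5 on the lower. Of the receptors that IDOL targets, Vldlr averaged 79.3 ± 53.0 CPM in KO and 69.5 ± 61.7 CPM in WT Tac2 neurons, and Lrp8 25.3 ± 23.5 CPM and 17.6 ± 30.5 CPM, too few UMIs for the test.

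**Figure D4:**
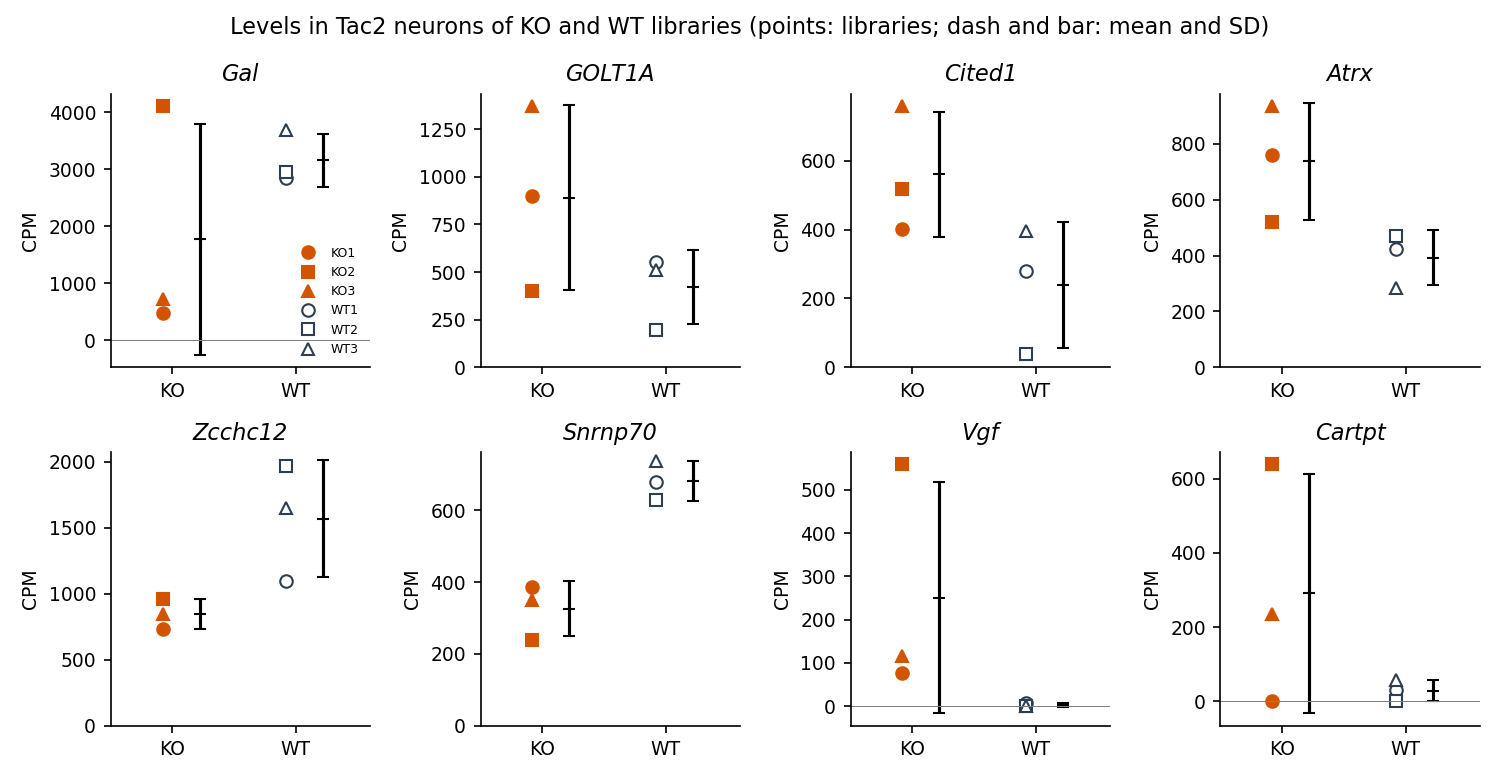
CPM of 8 genes in Tac2 neurons, 1 point per library, KO left of WT, with mean and SD to the right of each group. None passed between KO and WT. Gal is at 481 and 731 CPM in KO1 and KO3 but 4109.5 CPM in KO2, and the 3 WT libraries sit between 2838 and 3690.0 CPM.

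Gal depended on 1 library. It stood at 481, 4109.5 and 731 CPM in Tac2 neurons of KO1, KO2 and KO3, against 2838, 2946 and 3690.0 CPM in WT1, WT2 and WT3. KO1 and KO3 lay below every WT library, and KO2 above. The log2 difference was -0.92 ± 0.50 (edgeR, adjusted p = 0.976) and, without KO2, -2.36 ± 0.31 (adjusted p = 4.63e-07), while the other alternatives gave adjusted p of 0.459 to 0.998. Cells with GABA genes alone, in which Gal was high, were 0 of 20 in KO1, 3 of 12 in KO3 and 6 of 10 in KO2, against 10 of 38, 2 of 5 and 3 of 5 in WT1, WT2 and WT3. Within these cells Gal stood at 6128 CPM in KO2 and 1448 CPM in KO3, against 5774, 3345 and 4022 CPM in WT1, WT2 and WT3. Within cells with Slc17a6 alone it stood at 513, 661 and 427 CPM in KO1, KO2 and KO3, against 1635 CPM in WT1, and 0 and 6185 CPM in the single such cells of WT2 and WT3. Of the 16 Gal UMIs in the 3 cells with GABA genes alone of KO3, 15 lay in 1 cell. The part of the transmitter mix in the Gal levels was not tested.

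The effect of genotype was also set against that in the other neurons of the same libraries, as an interaction. Of 9940 genes, 3 differed (0.0302%; 2 higher, 0.0201%, and 1 lower, 0.0101%), namely Gal, Vgf and Cartpt. For Gal the KO effect in Tac2 neurons lay -1.69 ± 0.31 (log2) from that in the other neurons, in which Gal averaged 381 ± 259.5 CPM in KO and 286 ± 164 CPM in WT (edgeR, adjusted p = 7.39e-04). The SE of 0.31 was smaller than the 0.50 of the Gal difference between KO and WT within Tac2 neurons alone. It may understate the spread between libraries. Vgf, a precursor of secreted peptides, gave 23 UMIs in KO and 1 in WT Tac2 neurons, a ratio of their shares of UMIs of 32.6 with an exact 95% interval of 5.30 to 1345, and Cartpt 24 and 5. Of these, 13 Vgf and 16 Cartpt UMIs lay in 1 and the same cell of KO2, which had 51 Tac2 UMIs and no Pomc UMI. The fitted differences were 5.33 ± 1.03 for Vgf and 3.45 ± 0.70 for Cartpt (edgeR, adjusted p = 0.00115 and 0.00255). None of the 3 passed once the largest Tac2 neuron of each library was left out (adjusted p = 0.103 for Gal and 1 for the others), while the Gal difference was then -1.77, that of Vgf 3.95 and that of Cartpt 1.68. The Gal call was lost without KO1, KO3 or WT3, the Vgf call without KO2 or WT1, and the Cartpt call without KO2, KO3, WT1 or WT2.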

How the data were processed

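The deposited tables give UMI counts as whole numbers that the authors had not normalized, as the values show, with 18204 genes in all. Per the submitters' processing notes, bcl2fastq and STAR 2.5.0c were used with mm10 and GRCm38. Alignment settings and the counting step are not given in the sources used here. Cells were filtered as described above, and no doublets were removed from the main results. Scrublet (scanpy 1.11.5) calls were left out in an alternative. Counts were summed per library and cell kind and tested with edgeR 4.0.16 in R 4.3.3 (quasi-likelihood, TMM scaling, Benjamini-Hochberg adjustment over all genes tested), with the library as a block between cell kinds, and DESeq2 1.42.0 as an alternative. Each SE of an edgeR difference was derived as the absolute log2 difference divided by the square root of its F statistic. The fits were tested on simulated data with an assumed spread between libraries that was the same for every gene. CPM values are summed counts scaled to a total of 1000000.

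The members and gene lists were chosen with earlier results of these data known. Genes were named by rule: in Tac2 neurons against other neurons, the 20 higher and 10 lower genes of smallest adjusted p that moved the same way in every library, with listed genes seen in at least 10% of cells; between KO and WT, the 10 of smallest p in each direction. Genes against Pomc, Agrp and Sst neurons, and Trpc5, Kcnd2, Cacna1g, Fos, Jun and Nr4a2, were chosen after their values were seen. Same-numbered KO and WT libraries deviated together over 552 genes (correlations of 0.140, 0.217 and 0.178), but the labels do not state a pairing. The main tests of KO against WT were unpaired, and the replicate numbers entered as a block in an alternative only. Intervals and floors cover counting error only. Kiss1 was not analysed here, and some genes that the rule names are not reported here.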

Additional observations from a re-analysis of the deposited data

Results flagged for a closer look

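The KO effect in Tac2 neurons differed from that in the other neurons of the same libraries for 3 genes (edgeR, interaction). For Gal the difference was -1.69 on the log2 scale, for Vgf 5.33 and for Cartpt 3.45. Each call was lost when the largest Tac2 neuron of each library was left out, with differences then of -1.77 for Gal, 3.95 for Vgf and 1.68 for Cartpt. Of the Gal UMIs in Tac2 neurons 10.4% lay in 1 cell of WT1, whereas 1 cell of KO2 held 13 of the 24 Vgf and 16 of the 29 Cartpt UMIs.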

How the results depend on the processing

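The few Tac2 neurons of WT2 and WT3, with 5 cells each, and the weight of WT1 limit every comparison of KO and WT. Leaving out 1 library at a time gave 0 to 1 genes between KO and WT, 841 to 1232 genes against the other neurons, 1 to 2 for the interaction, and 19 to 54, 71 to 129 and 45 to 179 genes against Pomc, Agrp and Sst neurons. The replicate block gave 0 genes between KO and WT and changed no call. Against the other neurons DESeq2 gave 771 genes, and the comparison with at least 5 UMIs of the neuronal transcripts, chosen after seeing the data, 563. The interaction gave 0 genes without the largest Tac2 neuron of each library. With no filter on low counts 172 genes passed against Pomc and 255 against Agrp neurons. The cause of these shifts was not tested. Of 48 genes named against the other neurons, 37 kept their direction and call in every alternative.

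Signs turned for values near 0. With library totals as the sole scaling, Thra was at 0.054, Gad1 at 0.023 and Gad2 at 0.21 (log2). With 1 library left out, Gad1 ran from -0.37 to 0.21 and Gad2 from -0.23 to 0.44. Gad2 was at 0.23 with at least 3 Tac2 UMIs, 0.0014 without Scrublet calls, and 0.014 without other neurons of 1 to 4 Tac2 UMIs. Thinning kept cells of at least 1000 UMIs, and for the share of neurons it took at least 2 Tac2 UMIs as the cut. The KO minus WT share of neurons was 0.124 percentage points after thinning and -0.426 to 0.601 with 1 library left out. That of Pdyn detection was -3.83 with at least 3 Tac2 UMIs, -11.1 after thinning and -11.9 to 11.4 with 1 library left out. That of Tacr3 detection was 0.566 with at least 10 Tac2 UMIs. Kiss1 detection was not run, and GOLT1A stood in its place.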
